A study of Rattus norvegicus with 20 samples.

Results

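Livers of male Wistar rats on 10% food restriction for 1 week were compared with livers of unrestricted control rats of the same duration. The comparison used the 2 arrays titled for 10% restriction at 1 week and the 2 arrays titled for the 1 week control, 4 of the 20 arrays of the series. Each side was 1 RNA pool of 5 rats run on 2 Affymetrix rat expression GeneChips, so the 2 arrays of a side are technical repeats of the same RNA and the spread between rats was not measured. The series also holds pools at 5, 20 and 30% restriction for 1 week and all 5 levels for 1 month, 10 pools in all. Per the labels, all rats, controls included, started their diets at 6 weeks of age and went without food for 16 h before their livers were removed, and 10 ug of RNA was labelled for each array. The sample labels give 6 weeks as the age for the 1 week arrays and 9 weeks for the 1 month arrays, without saying at what point of the experiment. They name no time of day for the removal of the liver, and they name a plant RNA kit where the series design names an RNeasy mini kit with DNase treatment.

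The liver turns dietary sugar into fatty acids and cholesterol after a meal and burns fatty acids in mitochondria and peroxisomes during a fast. Lipid synthesis genes are switched on by the transcription factors Srebf1 and Srebf2, which stay in the endoplasmic reticulum when bound to Insig proteins, and by Mlxipl, which responds to sugar. Fatty acid oxidation genes are largely targets of the nuclear receptor Ppara. Many liver genes also follow the circadian clock, in which Clock and Bmal1 activate the Per, Cry and Nr1d genes and the output factors Dbp, Tef and Hlf, while Nr1d1 and Nr1d2 repress Bmal1. Meal times set the phase of this clock in the liver.

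The values are MAS5 intensities, 1 per probe set, which were quantile normalized between the 20 arrays on the log2 scale. Signals are given as normalized units. A gene is represented by its brightest probe set, and 7055 genes passed a filter that kept the upper 60% of probe sets by mean signal over all 20 arrays, with 11.7 units as the lowest mean signal kept. A gene was called higher or lower when the pool means differed by at least 2-fold and both arrays of a pool lay beyond both arrays of the other. This is a rule of size and not a significance test. The error given after a log2 difference is the SD between the 2 arrays of a pool, combined over the 10 pools, and it measures technical error only. The 2 control arrays correlated at 0.954 and the 2 restricted arrays at 0.971 over probe sets, against 0.936 to 0.953 across the pools. The first control array correlated nearly as well with the restricted arrays (0.953 and 0.952) as with its own repeat. The GAPDH 3' to 5' signal ratio, a measure of RNA integrity, was 1.5 and 1.52 on the control arrays and 1.48 and 1.5 on the restricted arrays. For beta-actin the ratio was higher, at 2.89 and 2.58 on the control arrays. It was 2.45 and 3.31 on the restricted arrays, where the repeats differed more. In RNA of whole liver, fewer cells of a type and less RNA per cell cannot be told apart.

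At 1 week of 10% restriction, 150 genes were called higher and 93 lower. These are 2.13% and 1.32% of the 7055 genes, or 3.44% in both directions together, and 344 of 9520 probe sets (3.61%) passed the same rule. The largest differences upward were in the clock output factor Dbp, in the steroid dehydrogenase Hsd17b2 and in metallothionein Mt2A. Downward they were in the cell cycle inhibitor Cdkn1a, the lipid droplet protein Pnpla3, the taurine transporter Slc6a6 and the sterol sensor Insig1. Of the genes called higher, 79 had at least 1 of the 4 arrays under 11.7 units, as had 34 of those called lower. With such values raised to 11.7 units, 91 genes were called higher and 72 lower. Without the first control array, 296 genes were called higher and 163 lower. The split depended on the scaling, since signals as deposited gave 426 genes higher and 41 lower, with the median difference over all genes at 0.33 in place of 0.01 on the log2 scale.

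**Figure D1:**
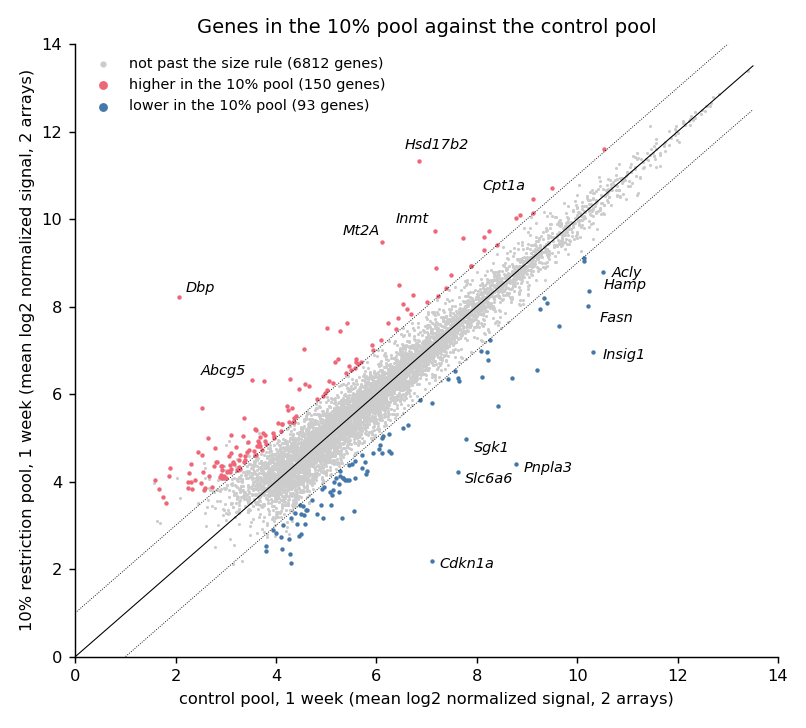
Mean log2 signal of each of the 7055 genes in the control pool (x axis) and in the 10% restriction pool (y axis) at 1 week, each the mean of 2 arrays. Dotted lines mark a 2-fold difference. The 150 genes called higher crowd toward low signals, while several of the 93 genes called lower, Acly, Fasn, Hamp and Insig1 among them, have high signals in the control pool.

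Several enzymes and regulators of fatty acid and triglyceride synthesis were lower in the restricted pool. Of 25 measured members, 9 were called lower and 0 higher, and 23 had a difference below 0. The median difference of the list was -0.74 on the log2 scale, beside 0.01 over all 7055 genes. Of those 7055 genes, 3572 had a difference above 0 and 3467 below 0. Fatty acid synthase, Fasn, gave 1150 and 1240 units on the control arrays and 248 and 271 on the restricted arrays, a 4.60-fold lower level (-2.20 ± 0.15). ATP citrate lyase, Acly, which makes the acetyl-CoA that Fasn uses, gave 1410 and 1490 units in the control pool and 452 and 438 after restriction, 3.26-fold lower (-1.71 ± 0.10). For both enzymes the repeats of a pool lay close together and the pools were far apart.

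Pnpla3, a lipase-like protein of lipid droplets, had the largest difference of the list. Its signals were 454 and 426 units in the control pool and 19.7 and 22.5 after restriction, 20.9-fold lower (-4.38 ± 1.21). Its array error, taken over all 10 pools, was large, and 1 array of the 30% pool at 1 week gave 0.939 units against 12.4 on its repeat. Lpin1, the phosphatidate phosphatase that makes diacylglycerol, gave 375 and 458 units in the control pool against 76.4 and 90.3, 4.99-fold lower (-2.32 ± 0.15). The mitochondrial glycerol-3-phosphate acyltransferase Gpam was lower at 16.5 and 21.6 units against 47.7 and 67.2 (-1.58 ± 0.24).

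The transcription factors of the pathway were lower as well. Srebf1 gave 603 and 694 units on the control arrays and 301 and 283 on the restricted arrays, 2.22-fold lower (-1.15 ± 0.17). A second probe set of Srebf1 gave a smaller difference of -0.83 that was not called. Mlxipl, the sugar-responsive factor also known as ChREBP, was lower at 32.6 and 33.6 units against 65.2 and 74.7 (-1.08 ± 0.28). The other members called lower were Elovl6, which lengthens palmitate, at -1.30, and Pgd, which makes NADPH for synthesis, at -1.24. Acetyl-CoA carboxylase Acaca, with a difference of -0.74 ± 0.10, and the desaturase Scd, with -0.43 ± 0.08, did not reach 2-fold. Dgat2, which makes triglyceride from diacylglycerol, had a difference above 0 (0.29 ± 0.10). With signals as deposited, 5 members of the list were called lower and 0 higher.

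Some genes of cholesterol synthesis and uptake were also lower. Of 19 measured members, 6 were called lower and 0 higher, 17 had a difference below 0, and the median was -0.37. Insig1, which holds the SREBP factors in the endoplasmic reticulum and is itself an SREBP target, had 1290 and 1260 units in the control pool and 111 and 139 after restriction. That is 10.3-fold lower (-3.36 ± 0.17), the 2 restricted arrays being far under both controls. Its relative Insig2 was 2.49-fold lower, with 690 and 657 units against 274 and 267 (-1.32 ± 0.06).

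Enzymes of the pathway called lower were Dhcr7 (-1.46 ± 0.14), which makes cholesterol from its last precursor, phosphomevalonate kinase Pmvk (-1.31 ± 0.25), farnesyl diphosphate synthase Fdps (-1.02 ± 0.09) and Mvd (-1.78 ± 0.73). Mvd lay near the lowest signals, with 31.0 and 30.5 units against 4.07 and 19.7. Sterol C5-desaturase Sc5d (-0.16 ± 0.05), Idi1 (-0.14 ± 0.20) and Msmo1 (0.03 ± 0.16) were near 0, so not all steps of the pathway differed alike. Srebf2, the factor that drives the pathway, had a difference of -0.25 ± 0.36, within its array error.

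The promoter of Insig1 is shown because this gene had the largest difference in the sterol list and its window holds a letter string searched for. RefSeq (GRCr8) gave 300-base windows, from 250 bases before to 50 bases after the gene start, for 5944 of the tested genes and for 197 of the 243 called genes. The Insig1 window lies at chr4:8057720-8058019 on the minus strand, and capitals mark an E-box, CACGTG, which starts 79 bases before the gene start (position -79).
Insig1: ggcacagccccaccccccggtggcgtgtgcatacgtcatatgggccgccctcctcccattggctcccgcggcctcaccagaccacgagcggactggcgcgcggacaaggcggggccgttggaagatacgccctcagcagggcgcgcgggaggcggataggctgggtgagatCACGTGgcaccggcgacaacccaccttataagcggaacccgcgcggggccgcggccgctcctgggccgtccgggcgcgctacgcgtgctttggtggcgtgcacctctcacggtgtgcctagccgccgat
CACGTG, searched on both strands, stood in 9.99% of the 5944 windows, in 15 of 119 windows of genes called higher (12.6%) and in 4 of 78 of genes called lower (5.13%). The sterol element letters TCACNCCAC stood in 1.16% of the 5944 windows, and in 0 of the 5 windows of the cholesterol genes called lower. A letter match is a description of the sequence and does not show binding.

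Among genes that clear sterol and make bile acids, some were higher and most were not called. Of 24 measured members of bile acid and sterol handling, 5 were called higher and 0 lower, 19 had a difference above 0, and the median was 0.42. Cyp7a1, the rate-limiting enzyme of the classical route from cholesterol to bile acids, gave 41.0 and 34.9 units in the control pool and 108 and 116 after restriction, 2.97-fold higher (1.57 ± 0.15). Cyp8b1, which sets the share of cholic acid, gave 529 and 579 units against 1090 and 1170 (1.03 ± 0.07). Both restricted arrays of Cyp8b1 lay above all 18 other arrays of the series.

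Abcg5 and Abcg8 encode the paired subunits of the transporter that exports sterol into bile. Abcg5 gave 13.1 and 9.94 units in the control pool and 72.6 and 87.0 after restriction, at least 6.43-fold higher with values under 11.7 units raised to it (2.80 ± 0.37). Abcg8 was also higher at low signal, with 9.55 and 9.80 units against 24.3 and 20.9 (1.22 ± 0.43), and its difference fell under 2-fold when low values were raised. Akr1d1, which reduces bile acid precursors, was called higher at 1.23 ± 0.15. The bile salt exporter Abcb11 (-0.01 ± 0.08) and the bile acid receptor Nr1h4 (-0.36 ± 0.18) were not called, and the uptake carriers Slco1a4 (0.86 ± 0.06) and Slco1b2 (0.69 ± 0.10) had differences above 0 that did not reach 2-fold.

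The 2 transporter genes lie head to head, and their promoter windows share 295 of 300 bases on opposite strands. The Abcg5 window at chr6:15717686-15717985, plus strand, is shown because it overlaps the windows of both genes, and it holds none of the letter strings searched.
Abcg5: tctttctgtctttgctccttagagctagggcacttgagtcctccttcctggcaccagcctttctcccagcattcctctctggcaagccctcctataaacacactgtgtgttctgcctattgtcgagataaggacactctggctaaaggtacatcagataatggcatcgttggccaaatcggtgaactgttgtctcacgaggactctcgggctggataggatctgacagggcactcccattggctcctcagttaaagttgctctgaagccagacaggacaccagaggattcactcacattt
Apart from the strings given above, the search covered the D-box TTANGTAA, the PPAR element (0 of 5944 windows) and the metal element core TGCNCNC (60.8% of windows), on both strands.

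Fatty acid oxidation genes had small differences upward with a few large ones. Of 22 measured members of mitochondrial oxidation and ketogenesis, 21 had a difference above 0, with a median of 0.23, beside 3572 of all 7055 genes above 0. The median is smaller than the 0.33 at which all genes stood with signals as deposited, so small differences here depend on the scaling. In this list 3 members were called higher and 1 lower (5 and 1 with signals as deposited, 2 and 1 with median centring). Carnitine palmitoyltransferase Cpt1a, which controls the entry of fatty acids into mitochondria, gave 576 and 542 units in the control pool and 1440 and 1390 after restriction, 2.53-fold higher (1.34 ± 0.07). Both restricted arrays exceeded the other 18 arrays of the series. A second probe set of Cpt1a was also called higher, at 1.26 on the log2 scale.

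The isomerase Eci1 gave 292 and 276 units against 768 and 784 (1.45 ± 0.11), and the reductase Decr1, which like Eci1 handles unsaturated chains, gave 332 and 343 against 668 and 699 (1.02 ± 0.06). Cpt2 (0.90 ± 0.05) stayed just under 2-fold. The core enzymes of the spiral lay closer to control, at 0.03 ± 0.09 for Acadm, 0.26 ± 0.08 for Acadvl and 0.45 ± 0.07 for Hadha. Pdk4, the kinase that shuts pyruvate dehydrogenase and a known fasting gene, went the other way, with 89.0 and 111 units in the control pool and 37.7 and 41.1 after restriction (-1.34 ± 0.16).

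Peroxisomal and omega oxidation had 4 of 16 measured members called higher and 0 lower, with a median of 0.42. Ech1, an isomerase of peroxisomes and mitochondria, gave 212 and 209 units in the control pool and 770 and 746 after restriction, 3.60-fold higher (1.85 ± 0.08). The omega hydroxylases Cyp4a1 (425 and 452 against 1040 and 1040 units) and Cyp4a3 (739 and 704 against 1730 and 1620 units), well-known Ppara targets in rats, were 2.37-fold and 2.32-fold higher. Both arrays of the restricted pool lay above the 18 other arrays for each of these hydroxylases. Hacl1, of alpha oxidation, was called higher at 1.14 ± 0.07, while catalase (Cat, -0.01 ± 0.10) and the peroxisomal transporter Abcd3 (0.11 ± 0.27) were at control level within their array error. The signal of Ppara itself was near the filter, at 16.2 and 9.94 units in the control pool and 14.9 and 15.7 after restriction.

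**Figure D2:**
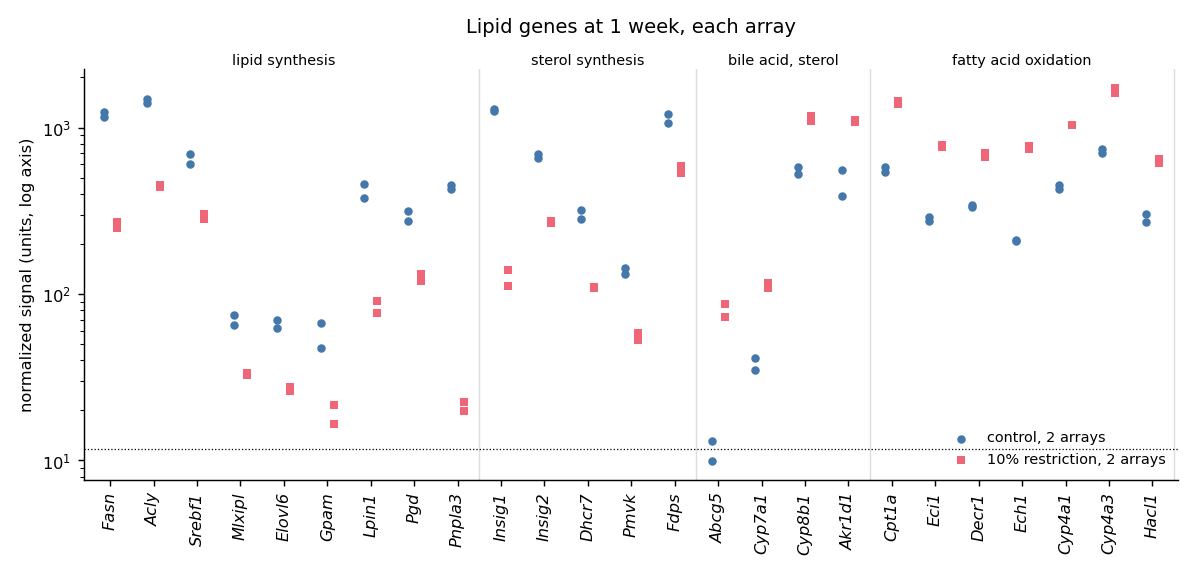
Normalized signal on each array (y axis, log scale) of genes of lipid synthesis, sterol synthesis, bile acid and sterol handling and fatty acid oxidation at 1 week, with circles for the 2 control arrays and squares for the 2 arrays of the 10% pool. The dotted line is the lowest mean signal kept, 11.7 units. Only genes that passed the size rule are shown, so the gap between squares and circles follows from the choice of genes. The squares lie under the circles for the synthesis genes and over them for the bile acid and oxidation genes. List members that did not pass are left out, as are Pdk4 and Mvd, which were called lower, and Abcg8, which was called higher.

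Of 17 proteins that bind, take up and store fatty acids, 0 were called higher and 2 lower. With signals as deposited 3 were called higher and 2 lower, and 1 was called higher without the first control array or without the first restricted array. Fabp5 gave 755 and 851 units in the control pool and 172 and 207 after restriction, 4.24-fold lower (-2.09 ± 0.14), and the acyl-CoA synthetase Acsl3 was lower at -1.49 ± 0.40. The main liver binding protein Fabp1 had a difference of 0.09 ± 0.08. Fgf21, a hormone of fasting, gave 29.4 and 30.6 units against 41.7 and 58.5 (0.72 ± 0.32) and was not called. Of 22 genes of gluconeogenesis, glycolysis and glycogen, Pdk4 alone passed the rule. Pck1, the key enzyme of gluconeogenesis, gave 2360 and 1920 units in the control pool and 2430 and 2220 after restriction, and the pools overlapped. Pyruvate kinase Pklr (-0.79 ± 0.10) and the glucokinase regulator Gckr (-0.54 ± 0.12) were below control without reaching 2-fold.

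The circadian clock list had the highest share of called genes among the 31 gene lists that are not cell type markers. The lists were chosen with earlier results of these data known, so this ranking is a description. Over all 7055 genes, 3.44% were called. Of 14 measured members, 7 were called higher and 2 lower, with a median of 0.92. Dbp, an output factor that binds D-box sites, gave 4.72 and 3.69 units on the control arrays and 290 and 303 on the restricted arrays. Taking control values at the 11.7 unit floor, this is at least 25.4-fold higher (6.15 ± 0.30), and it was the largest difference upward in the comparison. The control signals of Dbp lay under the floor on both arrays and the restricted signals far over it.

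Nr1d1 and Nr1d2, the REV-ERB repressors of Bmal1, were both higher. Nr1d1 gave 25.1 and 22.1 units against 115 and 149, 5.57-fold higher (2.48 ± 0.20), and Nr1d2 gave 40.5 and 44.8 against 202 and 195, 4.65-fold higher (2.22 ± 0.12). All 3 tested probe sets of Nr1d2 were called higher. The period gene Per2 gave 16.1 and 2.07 units in the control pool and 43.1 and 62.0 after restriction, at least 3.77-fold higher with low values raised (3.16 ± 0.70), the 2 control arrays differing widely from each other.

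Cry2 (1.51 ± 0.37), the output factor Hlf (1.41 ± 0.13) and the rhythmic deubiquitinase Usp2 (2.16 ± 0.14) were also higher. On the opposite arm, Bmal1 gave 47.7 and 46.7 units in the control pool and 12.9 and 7.76 after restriction, at least 3.85-fold lower with the value under the floor raised to it (-2.24 ± 0.92). Nfil3, which competes with Dbp for D-box sites, was lower at 24.9 and 23.6 units against 56.7 and 49.2 (-1.12 ± 0.17), and Clock had a difference of -0.96 ± 0.26, just short of the rule. Thus the activators Bmal1 and Clock were below control while Per2, Cry2, Nr1d1, Nr1d2 and Dbp were above. Per1 (-0.40 ± 0.96) and Tef (0.06 ± 0.68) had restricted arrays too far apart to place.

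The Per2 promoter is shown because its window holds a D-box, TTANGTAA, the sequence that Dbp, Tef, Hlf and Nfil3 are known to bind. Of the 7 clock genes called higher, 6 had a window, of which 1 held a D-box and 0 an E-box, while 1.40% of the 5944 windows held a D-box. The window lies at chr9:99496944-99497243 on the minus strand, and the match starts 192 bases before the gene start (position -192, in capitals).
Per2: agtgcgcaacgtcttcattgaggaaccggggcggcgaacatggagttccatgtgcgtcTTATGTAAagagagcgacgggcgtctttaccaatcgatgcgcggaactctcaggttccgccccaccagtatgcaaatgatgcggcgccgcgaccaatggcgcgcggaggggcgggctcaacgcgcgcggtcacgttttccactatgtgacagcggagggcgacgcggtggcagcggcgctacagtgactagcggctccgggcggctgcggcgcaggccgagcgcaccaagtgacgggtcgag
The window of Dbp held neither E-box nor D-box letters.

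**Figure D3:**
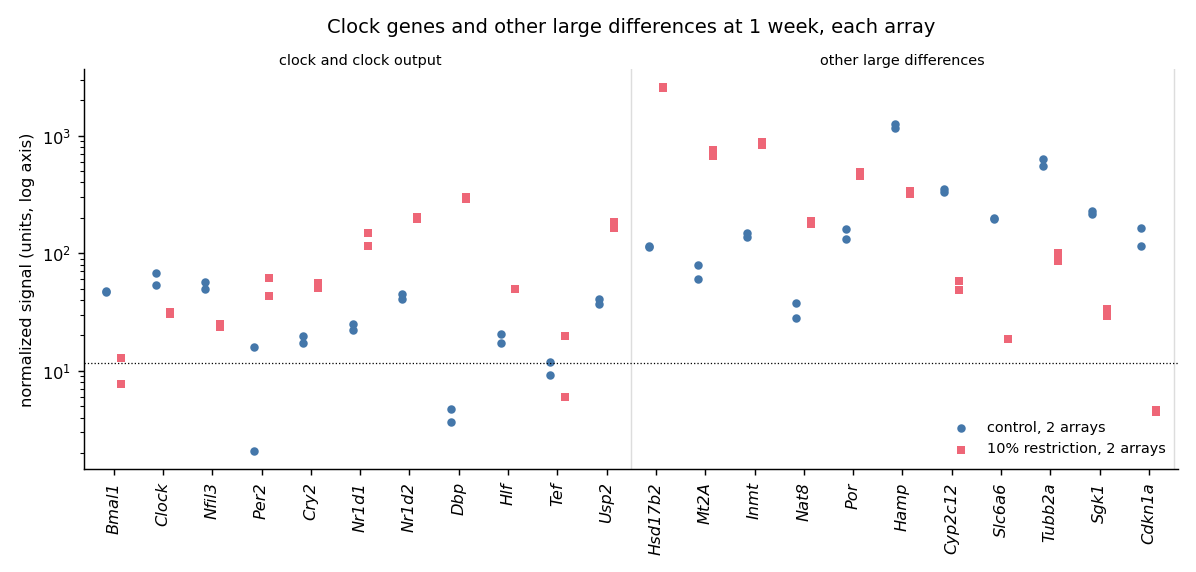
Normalized signal on each array (y axis, log scale) of clock genes and of other genes with large differences at 1 week, circles for the 2 control arrays and squares for the 2 arrays of the 10% pool. The dotted line is 11.7 units. Dbp lies under the line in the control pool and at 290 and 303 units after restriction, Bmal1 and Clock lie lower after restriction, and Per2 and Tef show the widest scatter between repeats.

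Steroid and drug metabolism held several of the largest differences upward. Hsd17b2, which oxidises estradiol and testosterone to their weaker ketones, gave 114 and 116 units in the control pool and 2570 and 2550 after restriction. This is 22.3-fold higher (4.48 ± 0.09) at high signal, with repeats almost equal. Of 42 measured phase I genes, 6 were called higher and 1 lower, with a median of 0.27. Por, the reductase that supplies electrons to all microsomal P450 enzymes, gave 133 and 161 units against 457 and 493, 3.24-fold higher (1.70 ± 0.20).

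Adh4 gave 18.4 and 20.6 units in the control pool against 87.0 and 76.6 (2.07 ± 0.36), and Aldh1a1, which makes retinoic acid, gave 90.1 and 86.0 against 364 and 361 (2.04 ± 0.09). Fmo1 (1.53 ± 0.09), Adh1c (1.05 ± 0.04) and the nuclear receptor Nr1i3, known as CAR (1.21 ± 0.13), completed the members called higher. Cyp1a2 (0.96 ± 0.04) and Cyp2e1 (0.68 ± 0.06) had differences above 0 that stayed under 2-fold. With signals as deposited, 10 phase I genes were called higher and 1 lower.

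Among sex-dependent P450 genes of rats, Cyp2c12, known as female-predominant, gave 354 and 335 units in these male control livers and 48.9 and 57.8 after restriction, 6.48-fold lower (-2.70 ± 0.24). The male-predominant Cyp2c11 gave 3670 and 3580 units against 3500 and 3140 (-0.13 ± 0.07), and Cyp2c13 had a difference of -0.03 ± 0.05. Whether the Cyp2c12 probe set also binds transcripts of related genes was not tested. Phase II conjugation had 3 of 27 members called higher and 0 lower. The methyltransferase Inmt gave 149 and 138 units against 879 and 830, 5.95-fold higher (2.57 ± 0.08), the acetyltransferase Nat8 gave 37.6 and 28.0 against 189 and 178 (2.50 ± 0.16), and the sulfotransferase Sult2a6 was higher at 1.53 ± 0.30.

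The hormone and growth list had 3 of 25 members called higher and 1 lower. The counts were 8 higher and 1 lower with signals as deposited, and 1 higher and 2 lower without the second restricted array. The insulin receptor substrates Irs2 (13.4 and 12.3 units against 30.3 and 34.5) and Irs1 (11.9 and 7.43 against 18.6 and 20.2) were called higher at signals near the floor, as was Igfbp2. Irs1 was 1.65-fold higher with low values raised, which ended its call. Socs2, a growth hormone target that dampens its signal, was lower, with 39.8 and 30.5 units against 14.4 and 11.8 (-1.42 ± 0.49). Igf1, the main endocrine product of growth hormone action in liver, gave 2220 and 2640 units in the control pool and 1910 and 2070 after restriction, a difference of -0.29 ± 0.16 without overlap. Igfbp1, which insulin represses, had -0.78 ± 0.16 and was not called.

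Metallothionein and glucocorticoid response genes split. Mt2A, which binds zinc and is induced by metals and glucocorticoids, gave 78.9 and 60.9 units in the control pool and 749 and 674 after restriction, 10.2-fold higher (3.36 ± 0.16). Mt1 gave 11.9 and 21.4 units against 13.8 and 30.1, and its pools overlapped. Sgk1, a glucocorticoid-induced kinase, was 7.07-fold lower, with 215 and 227 units against 33.5 and 29.3 (-2.82 ± 0.11). Of the other glucocorticoid targets measured, Tsc22d3 (-0.77 ± 0.16) and Fkbp5 (-0.32 ± 0.20) were below control, and Klf9 (0.81 ± 0.15) and Dusp1 (0.41 ± 0.14) above, none of them by 2-fold.

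Cdkn1a, the p21 inhibitor of cyclin-dependent kinases, had the largest difference downward of all 7055 genes before low values were raised. It gave 116 and 165 units on the control arrays and 4.68 and 4.48 on the restricted arrays, at least 11.9-fold lower (-4.92 ± 0.63). With values under 11.7 units raised to it, Pnpla3 had the larger difference, at 20.9-fold. Both restricted arrays of Cdkn1a lay under the 18 other arrays. Among those, 1 array at 20% (5.31 units) and 1 at 5% (6.49 units) of 1 week were under the floor too. A second probe set of Cdkn1a was called lower too, at -5.15. Of 22 measured cell cycle genes, 5 were called lower and 0 higher, Cdkn1a among them, with a median of -0.22. The others were the mitotic genes Ccnb1 (-1.63 ± 0.75), Ccnb2 (-1.30 ± 1.05) and Birc5 (-2.15 ± 0.67) and thymidine kinase Tk1 (-1.39 ± 0.28), all at low signal. Both restricted arrays of Birc5 lay under the floor, and with low values raised it was 1.69-fold lower and no longer called. A second probe set of Tk1 had -0.82 and was not called. With signals as deposited, 2 genes of the list were called higher and 4 lower. Cyclin D1 (Ccnd1, 0.70 ± 0.08) and Pcna (-0.34 ± 0.13) were not called. The beta tubulin Tubb2a was 6.32-fold lower, with 634 and 553 units against 101 and 86.6 (-2.66 ± 0.24), and cytoplasmic actin Actg1 gave 922 and 1380 against 533 and 520 (-1.10 ± 0.19).

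Hepcidin, Hamp, the liver hormone that blocks iron export, gave 1170 and 1250 units in the control pool and 339 and 320 after restriction, 3.66-fold lower (-1.87 ± 0.07). The transferrin receptor Tfrc was 2.07-fold lower, at 101 and 83.7 units against 195 and 186. Its difference was -0.74 with signals as deposited, and a second probe set had -0.88, neither of which was called. The other 16 of 18 measured iron and haem genes were not called. Bmp6 (0.31 ± 0.32) and Id1 (0.40 ± 0.28), members of the BMP route that drives hepcidin, had differences close to their array error. Slc6a6, the taurine carrier, gave 198 and 194 units against 18.5 and 18.8, 10.5-fold lower (-3.40 ± 0.34), and the choline kinase Chka was 3.09-fold lower (-1.63 ± 0.35).

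Amino acid catabolism did not differ by 2-fold in any member. Of 44 measured genes that break down amino acids or make urea, 0 were called in either direction (2 lower without the first restricted array), with a median of 0.03 and a range from -1.0 (Gldc) to 0.70 (Sds). The urea cycle enzyme Cps1 gave 2200 and 1840 units against 1970 and 2060, and its pools overlapped. The stress lists held few called genes. Of 21 Atf4 response genes, 1 was called higher (4 with signals as deposited), the translation inhibitor Eif4ebp3, at 129 and 128 units against 291 and 265 (1.11 ± 0.08), and 0 of 27 endoplasmic reticulum chaperones were called, with Hspa5 at -0.41 ± 0.09. Hspb1 (-1.09 ± 0.39) was called lower among 13 heat shock genes, a call lost with signals as deposited and without the first control array. Among 22 antioxidant genes Gclm, a subunit of the enzyme that starts glutathione synthesis, was called higher at 303 and 299 units against 156 and 143, and Srxn1 lower (-1.54 ± 0.81). Srxn1 was 1.74-fold lower with low values raised, which ended its call, and with median centring 0 antioxidant genes were called higher and 2 lower. No gene was called among 29 proteasome subunits, 24 interferon and antigen presentation genes, 29 acute phase genes, 45 genes of oxidative phosphorylation, 25 autophagy genes or 17 apolipoprotein genes.

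Small differences in a shared direction stood in some of these lists, while 3467 of all 7055 genes had a difference below 0. Of 38 ribosomal protein genes, 37 had a difference below 0, with a median of -0.23 that was -0.01 with signals as deposited, where all genes stood at 0.33. Of 29 proteasome subunits, 24 were below 0, with a median of -0.19 that turned to 0.07 with signals as deposited. Only Rpl39 in these lists passed the size rule, at low signal (-1.43 ± 0.67), and it did not pass with signals as deposited or without the second restricted array.

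Markers of the cell types of liver were read as a check on the tissue. The summed signal of 9 hepatocyte markers was 42000 and 42100 units on the control arrays and 42500 and 42100 on the restricted arrays. Quantile normalization gives each array the same set of values, and albumin, Alb, stood at 10800 units on all 20 arrays. A sum led by such bright genes is nearly fixed by the normalization, so it cannot show the hepatocyte content. Differences of single hepatocyte markers ran from -0.70 to 0.68, with 0 called. All 8 tested Kupffer cell and macrophage markers had differences below 0 (median -0.48), and the sum over the 9 on the array was 1050 and 943 units in the control pool against 750 and 693 after restriction, with 0 genes called. Clec4f, which in rodents marks Kupffer cells, gave 212 and 185 units against 134 and 123 (-0.63 ± 0.11). Bile duct markers summed to 361 and 347 units against 207 and 208, and among them Cdh17 was called lower (-1.08 ± 0.12) while Muc1 was called higher at signals near the floor. Without Cdh17 the bile duct sum was 88.3 and 78.9 units against 71.2 and 88.8, and the pools overlapped. Muc1 was 1.57-fold higher with low values raised, which ended its call. The summed endothelial markers ran from 366 to 391 units in the control pool and from 407 to 415 after restriction. Stellate cell markers ran from 695 to 868 and from 780 to 877. Red cell markers summed to 2100 and 2170 units in the control pool and to 2000 and 1600 after restriction. Neutrophil and mast cell markers had 0 members above the signal filter, and 2 of the 5 on the array lay under 11.7 units on all 4 arrays. No gene was called among the markers of lymphocytes (2 tested), pancreas (2), adipocytes (1) or muscle (3). The part of these cell types in the gene differences was not tested.

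Each pool of the pair was ranked among the 10 pools of the series. Among the 150 genes called higher, the control pool was the lowest of the 10 pools for 99 and the restricted pool the highest for 49, with both true for 25. Among the 93 genes called lower, the control pool was the highest for 51 and the restricted pool the lowest for 30, with both true for 13. Over all 7055 genes the control pool was lowest for 13.1% and highest for 13.7%, and the restricted pool was highest for 8.28% and lowest for 7.6%. The calls were made on these same arrays, so that an excess at the edges follows in large part from the rule, and the counts are a description. Both restricted arrays lay beyond all 18 other arrays of the series for 85 genes in the upward direction (1.2% of 7055) and 68 in the downward direction (0.964%). For 66 of the genes called higher the controls of 1 week and of 1 month were the lowest pair of pools, and for 53 of those called lower they were the highest pair, against 7.34% and 6.83% of all genes, which is likewise a description. Hsd17b2 is an example, with 114 and 116 units in the 1 week control, 154 and 137 in the 1 month control and 2000 to 2720 in the restricted pools of 1 week.

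The other restricted pools of 1 week were read for the same genes. The comparisons of the restricted pools with control share the same 2 control arrays, so their values are only set side by side. At 1 week 249 genes passed the rule at 5% (3.53%), 243 at 10% (3.44%), 336 at 20% (4.76%) and 394 at 30% (5.58%). Fasn gave 484 and 531 units at 5%, 248 and 271 at 10%, 76.9 and 63.8 at 20% and 40.1 and 57.3 at 30%, lower at each level without overlap between neighbouring pools. Mt2A gave 380 and 377 units at 5%, 749 and 674 at 10% and 1430 and 1410 at 20%.

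Other genes were farther from control at 10% than at 30%. Of the 243 called genes, 33 were also beyond the 30% pool by the same rule, on the side away from control. The calls rest on the same 10% arrays, so part of this count follows from the choice of genes. The share of all genes beyond the 30% pool was not counted, so the 33 are a description. Among these 33 genes, 9 had every control, 10% and 30% array at or over 11.7 units. They were Lpin1, Tcim, Nr1d1, Tfrc, Sgk1, Mvb12b, Irf2bp2, Ugt2b15 and Ptger3, picked for this after their values were seen. A second probe set of Ptger3 gave 34.4 and 41.1 units in the control pool and 37.5 and 28.9 at 10%, so the higher level seen with the brighter one was not seen there. Lpin1 gave 91.2 and 88.9 units at 5% and 76.4 and 90.3 at 10%, but 329 and 322 at 20% and 339 and 350 at 30%, close to the 375 and 458 of the control. Nr1d1 gave 115 and 149 units at 10% and 44.0 and 41.7 at 30%, still over the control arrays. The glucuronosyltransferase Ugt2b15 gave 534 and 443 units at 10%, and its 30% arrays (217 and 233) lay at control level (241 and 233).

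**Figure D4:**
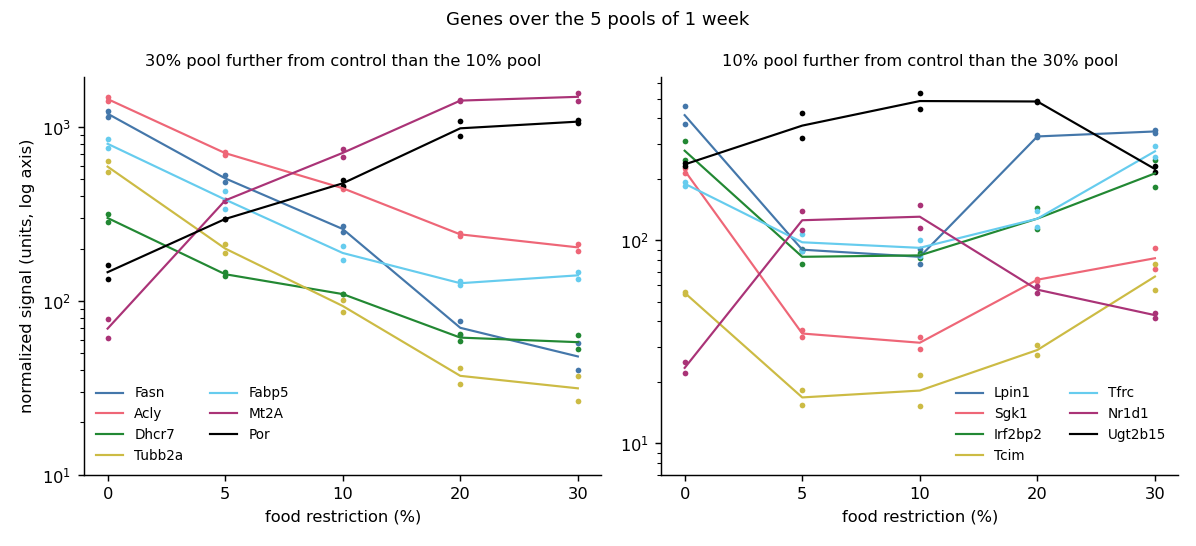
Normalized signal (y axis, log scale) of 14 genes over the 5 pools of 1 week, with food restriction in percent on an evenly spaced x axis, points for the 2 arrays of a pool and lines through the pool means. The genes were picked after their values were seen. In the left panel the 30% pool is farther from control than the 10% pool, as for Fasn, and in the right panel the 10% pool is farther, as for Lpin1.

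The 1 month pair at 10% shares no array with the 1 week pair. There 194 genes were called higher and 185 lower, 5.37% of 7055. Of the 150 genes called higher at 1 week, 47 were called higher at 1 month, which is 31.3% of the 1 week list and 24.2% of the 1 month list, against a background of 2.75% of all genes, and 2 were called lower. Of the 93 genes called lower at 1 week, 42 were called lower at 1 month, 45.2% of the 1 week list and 22.7% of the 1 month list, against 2.62%, and 2 were called higher. At 1 week and at 1 month, 9 and 9 of 25 fatty acid synthesis genes and 6 and 8 of 19 cholesterol genes were called lower, and 7 and 9 of 14 clock genes were called higher. The fatty acid synthesis genes called at the durations were not the same set, since Lpin1 and Gpam were not called at 1 month.

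Several large differences at 1 week were smaller at 1 month. Lpin1 had -2.32 at 1 week and -0.25 at 1 month, where its control arrays gave 594 and 442 units and its restricted arrays 422 and 439. Inmt had 2.57 and 0.55, Aldh1a1 2.04 and 0.58, and Cyp2c12 -2.70 and -0.62. The 1 month control differed from the 1 week control for some of them, with Inmt at 426 and 413 units against 149 and 138, and Cyp2c12 at 76.0 and 101 against 354 and 335. Cyp7a1 went the other way, at 1.57 and 2.98. These differences between durations were not tested, since each holds 1 pool a side.

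**Figure D5:**
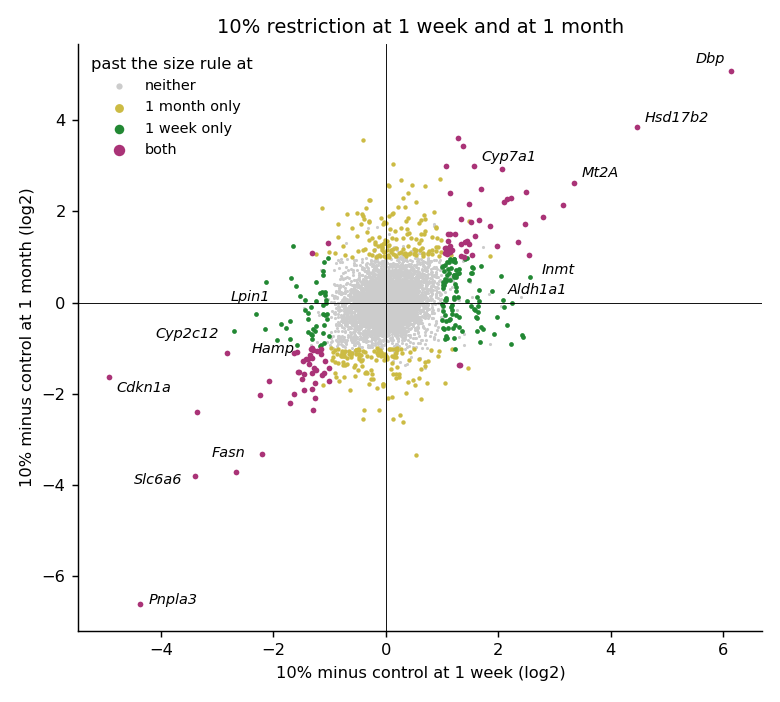
Log2 difference of the 10% pool from its control at 1 week (x axis) and at 1 month (y axis) for each of the 7055 genes, coloured by where the gene passed the size rule. Dbp, Hsd17b2 and Mt2A are high and Pnpla3, Slc6a6 and Fasn low at both durations, while Inmt, Aldh1a1, Lpin1, Cyp2c12 and Hamp lie closer to 0 at 1 month.

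The level of 10% was tested against control over both durations with limma on the 10 pool means, with duration as a covariate. In this test each pool is 1 replicate, and the spread comes from all 5 levels. At an adjusted p of 0.05, 153 genes passed (2.17% of 7055), 93 higher (1.32%) and 60 lower (0.85%), and 48 of the genes called higher and 28 of those called lower at 1 week were among them. The fit holds the same 1 week pools that gave the calls, so part of this overlap is built in. Hsd17b2 rose by 4.16 ± 0.35 (SE) on the log2 scale (limma, adjusted p = 0.00096), in both pairs of pools. Cpt1a rose by 1.31 ± 0.11 (limma, adjusted p = 0.00096), also in both pairs. Ech1 rose by 1.76 ± 0.16 and Eci1 by 1.40 ± 0.13, each with a limma adjusted p of 0.00122.

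Among the clock genes Dbp rose by 5.62 ± 0.64 (limma, adjusted p = 0.00500), as did Nr1d1, Nr1d2, Per2, Cry2 and Usp2, and Clock fell (limma, adjusted p = 0.0454). Bmal1, with a contrast of -2.13 ± 0.81, did not pass (limma, adjusted p = 0.255). In lipid synthesis 9 genes fell and 0 rose, Pnpla3 by -5.50 ± 0.63 and Acly by -1.95 ± 0.23 (limma, adjusted p = 0.00500 for each), and Fasn by -2.76 ± 0.46 (limma, adjusted p = 0.0151). These were not the same 9 genes as those called lower at 1 week. They included Acaca, Acss2, Elovl5 and Pklr, and lacked Elovl6, Gpam, Lpin1 and Mlxipl. In the sterol list 6 genes fell and 0 rose, Insig1 by -2.88 ± 0.40 (limma, adjusted p = 0.00772), and Abcg5 rose by 2.34 ± 0.32 (limma, adjusted p = 0.00767). Hamp (limma, adjusted p = 0.535), Lpin1 (limma, adjusted p = 0.189) and Cyp2c12 (limma, adjusted p = 0.0870) did not pass, with contrasts of -1.17 ± 0.74, -1.29 ± 0.44 and -1.66 ± 0.44. Over probe sets, 206 passed (2.16% of 9520). That count was 0 without a variance trend in limma, where 1222 had an unadjusted p under 0.05, and it was 23 without the 1 week control pool, 36 without the 1 week 10% pool, 34 without the 1 month control pool and 18 without the 1 month 10% pool.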

How the data were processed

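Liver RNA of 10 pools, each of 5 rats, was measured on 20 Affymetrix arrays, 2 arrays a pool. The deposited intensity values are on a linear scale, 1 per probe set, and the submitters' processing notes name MAS5 as the tool the authors ran. Neither its version nor a scaling target is stated there. The authors' values were not on a common scale, with 2% trimmed means from 38.8 to 99.6 units. The 57 control probe sets were left out, 32 zeros were replaced by the lowest positive signal on the same array, and the remaining 15866 probe sets were quantile normalized in log2. A filter on the mean log2 signal over 20 arrays kept 9520 probe sets (60%), of which 8120 had 1 gene in GEO's platform annotation, 245 several and 1155 none. MAS5 detection calls were not used, and the number of arrays limits the precision.

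A call at 1 week needed a 2-fold difference of pool means and arrays that did not overlap, since 1 pool a side allows no test. In R 4.3.3, limma 3.58.1 fitted level and duration to the 10 pool means, with a variance trend and Benjamini-Hochberg adjustment over 9520 probe sets (threshold 0.05), and was run on simulated data. That simulation capped the spread between pools at its median over probe sets. It therefore does not show how the test behaves for probe sets with a larger spread. Nothing says that rats of different pools were housed or handled alike, so p-values measure only the spread between pools. The members and gene lists were chosen with earlier results of these data known. Named are the 15 largest rises and falls, up to 5 called members of each list, up to 5 genes in each direction beyond all other arrays, preset genes, and up to 8 in each direction called at both durations and by limma. List members named beyond this were chosen after their values were seen. The alternatives were other scalings, filters, thresholds and arrays or pools left out.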

Additional observations from a re-analysis of the deposited data

Results flagged for a closer look

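Genes called in opposite directions at 10% restriction for 1 week and for 1 month were looked at again. There were 4, and in each the arrays of the pools did not overlap at either duration. The difference between the durations was not tested, since each duration holds 1 pool a side. Capn15 had a log2 difference of 1.32 at 1 week and -1.38 at 1 month, with control arrays at 21.2 and 4.53 units and restricted arrays at 27.8 and 21.6 units at 1 week. Slc2a8, a glucose transporter, had 1.31 at 1 week and -1.37 at 1 month, with 4.03 and 19.2 units against 22.9 and 20.8 units at 1 week. Oprd1, the delta opioid receptor, had -1.32 at 1 week and 1.09 at 1 month, with 18 and 30.8 units against 6.96 and 12.8 units at 1 week. Ppcdc, an enzyme of coenzyme A synthesis, had -1.02 at 1 week and 1.31 at 1 month, with 19.0 and 26.4 units against 9.53 and 12.7 units at 1 week. Each of the 4 genes had arrays under the 11.7 unit floor. With values under the floor raised to it, the differences at 1 week were 1.56-fold for Capn15, 1.46-fold for Slc2a8, 1.93-fold for Oprd1 and 1.84-fold for Ppcdc, so that no call in opposite directions was left.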

How the results depend on the processing

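At 1 week, 344 probe sets passed the size rule. The count was 677 with signals as deposited (620 higher, 57 lower), 1672 with no signal filter, 142 over the upper 40%, 219 with low values raised, 1228 at 1.5-fold and 86 at 3-fold. Leaving out 1 of the 4 arrays gave 450 to 675 probe sets, and 675 without the first control array. At 1 month the count of 569 became 2046 with no filter and 379 with low values raised, and was 723 to 826 with 1 array left out. It was 750 with signals as deposited, and the share of these probe sets called higher was 84.1% in place of 54.1%. The limma count of 206 was 371 with signals as deposited (342 higher, 29 lower), 0 without a variance trend, 320 with only the control and 10% pools, 112 on the arrays numbered 1, and 23, 36, 34 and 18 without the 1 week control, 1 week 10%, 1 month control and 1 month 10% pool. Median centring, and for limma the GAPDH ratio as a covariate, the filters and the arrays numbered 2, stayed within 1.5 times the reported counts. This holds for counts and not for the list medians. Of 37 list medians, 20 were marked as moved with median centring and 36 with signals as deposited. None of the results called at 1 week or tested by limma changed direction under these alternatives. Counts of called members in the lipid synthesis, sterol, bile acid, peroxisomal and clock lists kept their direction under each scaling, with low values raised and without each array, alternatives that were chosen for the lists after seeing the data. Other lists did not: hormone and growth genes went from 3 higher and 1 lower to 1 and 2 without the second restricted array, fatty acid binding from 0 and 2 to 3 and 2 with signals as deposited, metallothionein and glucocorticoid genes from 1 and 2 to 3 and 2 there, and antioxidant genes from 1 and 1 to 0 and 2 with median centring. Cell cycle genes went from 0 and 5 to 2 and 4 with signals as deposited. The cause of these shifts was not tested. No paired analysis was possible because the array numbers mark technical repeats of a pool, which were averaged, and the 1 week comparison has no test. With 1 pool a side the spread between rats is unknown, and signals near 11.7 units limit the low genes.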

Other observations

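Among the genes for which both arrays of the 10% pool at 1 week lay beyond all 18 other arrays, those farthest above, besides Cyp8b1 and Cyp4a1, were the ceramide synthase Cers6, with 125 and 132 units against 70.9 and 59.9 in the control pool, the complement protease C1r, with 936 and 960 against 754 and 680, and Wac-ps1, with 91.7 and 94.0 against 55.8 and 54.3. Farthest under were thymidine kinase Tk1, the aspartate aminotransferase Got1, with 241 and 285 units against 490 and 436, the sodium pump subunit Atp1b1, with 57.0 and 51.7 against 113 and 97.4, Polg2, with 58.6 and 64.2 against 85.3 and 78.2, and Tulp3, with 19.1 and 21.4 against 33.2 and 34.3. Of these genes, Cyp8b1, Cyp4a1 and Tk1 reached a 2-fold difference from control. At 1 month, Got1 had a log2 difference of 0.88 from control, against -0.82 at 1 week, a contrast that was not tested.

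Nceh1, a neutral cholesterol ester hydrolase, gave 26.6 and 6.96 units in the control pool and 79.1 and 79.1 after restriction, and both restricted arrays exceeded the 18 others. Of the 33 genes called against control that also lay beyond the 30% pool, 24 had at least 1 array under 11.7 units.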
